A study of Mus musculus with 30 samples.

Results

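The MHC class II genes were followed here in CD11b-selected cells of the mouse spinal cord after opioid exposure or peripheral nerve injury. The 7 genes are H2-Aa, H2-Ab1 and H2-Eb1, which encode chains of the peptide-presenting molecules, the invariant chain gene Cd74, the peptide-exchange genes H2-DMa and H2-DMb1, and the transactivator gene Ciita. They were taken by gene symbol from the deposited expression table, where all 7 were found among 24888 rows. A row had to reach 1 FPKM in at least 2 of the 30 libraries to be tested. FPKM is fragments per kilobase of transcript scaled to library depth, a level corrected for transcript length. Of the 7 genes, 6 passed, and Ciita did not, so the counts of changed members below are out of 6.

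Class II molecules are αβ pairs that hold peptides from the endosomal pathway at the cell surface, where CD4 T cells read them. Newly made pairs are bound by the invariant chain, which blocks the peptide groove and guides them to endosomes. There the DM pair exchanges the remnant of the invariant chain for peptide, and the DO pair (H2-Oa and H2-Ob) restrains DM. Transcription of these genes depends on CIITA, a coactivator without DNA contact of its own that docks on factors bound to the X and Y boxes of each promoter, and interferon-gamma is the classical inducer of CIITA in macrophages. Resting microglia carry little class II, whereas border macrophages, dendritic cells and B cells carry more. C57BL/6 mice lack a working H2-Ea gene, so the H2-Eb1 product has no α partner in this strain.

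On GRCm38, with GENCODE vM21 gene bounds, 5 of the genes lie in the class II region of chromosome 17. H2-DMa spans chr17:34119541-34139101 and H2-DMb1 chr17:34153072-34160230, both on the plus strand. H2-Ab1 spans chr17:34257689-34269419 and H2-Eb1 chr17:34305867-34316674 on the plus strand, with H2-Aa between them at chr17:34282744-34287823 on the minus strand. Ciita lies at chr16:10480059-10528418 on the plus strand.

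Stretches of 4 promoters are shown because the X and Y boxes are the known point of shared control of this family, and because the genes that hold their letters did not all move alike below. RefSeq windows on GRCm38.p6 running from 250 bases before to 50 bases after the annotated start were used for 4 of the 7 genes. The windows were searched on both strands for the X-box letters GNAAC followed, 10 to 40 bases later, by the Y-box letters TGATTGG, so that the motifs could not overlap. In each line the capitals mark first the X and then the Y letters, read 5′ to 3′ on the gene's strand.
H2-Aa: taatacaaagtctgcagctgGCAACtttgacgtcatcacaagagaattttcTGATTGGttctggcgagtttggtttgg
H2-Eb1: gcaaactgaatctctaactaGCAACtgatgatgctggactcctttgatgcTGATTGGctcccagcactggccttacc
H2-DMb1: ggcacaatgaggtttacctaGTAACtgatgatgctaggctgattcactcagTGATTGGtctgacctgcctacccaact
H2-Oa: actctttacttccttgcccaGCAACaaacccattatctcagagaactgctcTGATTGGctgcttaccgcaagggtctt
These stretches are chr17:34287847-34287924 on the minus strand for H2-Aa, chr17:34305756-34305832 on the plus strand for H2-Eb1, chr17:34153077-34153154 on the plus strand for H2-DMb1 and chr17:34092283-34092360 on the plus strand for H2-Oa, a gene outside the 7 that is described with them below. The X and Y letters were 26 bases apart in H2-Aa, H2-DMb1 and H2-Oa and 25 bases apart in H2-Eb1. Among 32851 promoter windows of this length, TGATTGG occurred in 7.82%, GNAAC in 84.8% and the spaced pair in 0.828%. The pair was found in 3 of the 4 members with a window, and the H2-DMa windows, at 2 annotated starts, held no TGATTGG. A match describes the letters and not an occupied site. The search took exact letters in these windows only, so a lack of a match does not show that a gene lacks the boxes.

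The study took cells by CD11b selection from caudal lumbar cords of C57BL/6J mice and profiled them by Smart-Seq2, a full-length RNA-seq method for low input, after perfusion with cold PBS, manual dissociation and magnetic removal of myelin. The 30 libraries fall into 12 groups. Morphine followed either a fixed schedule (4 libraries) or an escalating one (3 libraries). There are 7 nerve injury groups of 2 libraries each, timed in days post injury (dpi): SNT, transection of the sciatic nerve, at 1, 2, 4 and 7 dpi; CCI, its chronic constriction, at both 2 dpi and 7 dpi; and SNI, an injury that spares part of the nerve, at 7 dpi. As controls, 4 libraries had saline on the fixed schedule, 3 had saline on the escalating schedule and 2 were naive. No genetic modification, age or dose is given for these groups. CD11b selection keeps microglia together with other myeloid cells, and the labels do not say whether libraries of a group came from separate animals, so p-values measure the spread between these libraries.

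The libraries carried microglial transcripts throughout, with P2ry12 at 562 to 1550 FPKM, together with neutrophil transcripts such as S100a8 at 326 to 30884 FPKM. The libraries fell apart on Cst3, a very abundant microglial transcript, into 16 with 39503 to 95123 FPKM and 14 with 10120 to 20827 FPKM, and these sets did not overlap on the first principal component (39.2% of variance). The split crosses the groups unevenly. All fixed morphine, CCI, SNI and naive libraries, SNT 7 dpi replicate 2 and escalating morphine replicate 1 had low Cst3, and the remaining SNT, escalating morphine and all saline libraries had high Cst3. Scaling totals recovered from the steps in low FPKM values were 4375720 to 21444831 fragments in the low-Cst3 set and 1740670 to 11290818 fragments in the high-Cst3 set. They put 33 to 782 fragments behind H2-Aa and 1208 to 10011 behind H2-DMa in a library, as lower estimates.

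The DM genes and Cd74 were the most abundant members, and Ciita was barely detected. Averaged over the 30 libraries, H2-DMa was at 168 FPKM, Cd74 at 109 FPKM, H2-DMb1 at 76.0 FPKM, H2-Ab1 at 37.1 FPKM, H2-Aa at 30.2 FPKM, H2-Eb1 at 17.0 FPKM and Ciita at 0.263 FPKM. Ciita was listed at 0 in 4 libraries and reached 0.738 FPKM at most, so its level could not be compared between groups. H2-DMb1 has a close paralog beside it, H2-DMb2, and how fragments shared between the pair were assigned is not given in the sources used here.

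**Figure D1:**
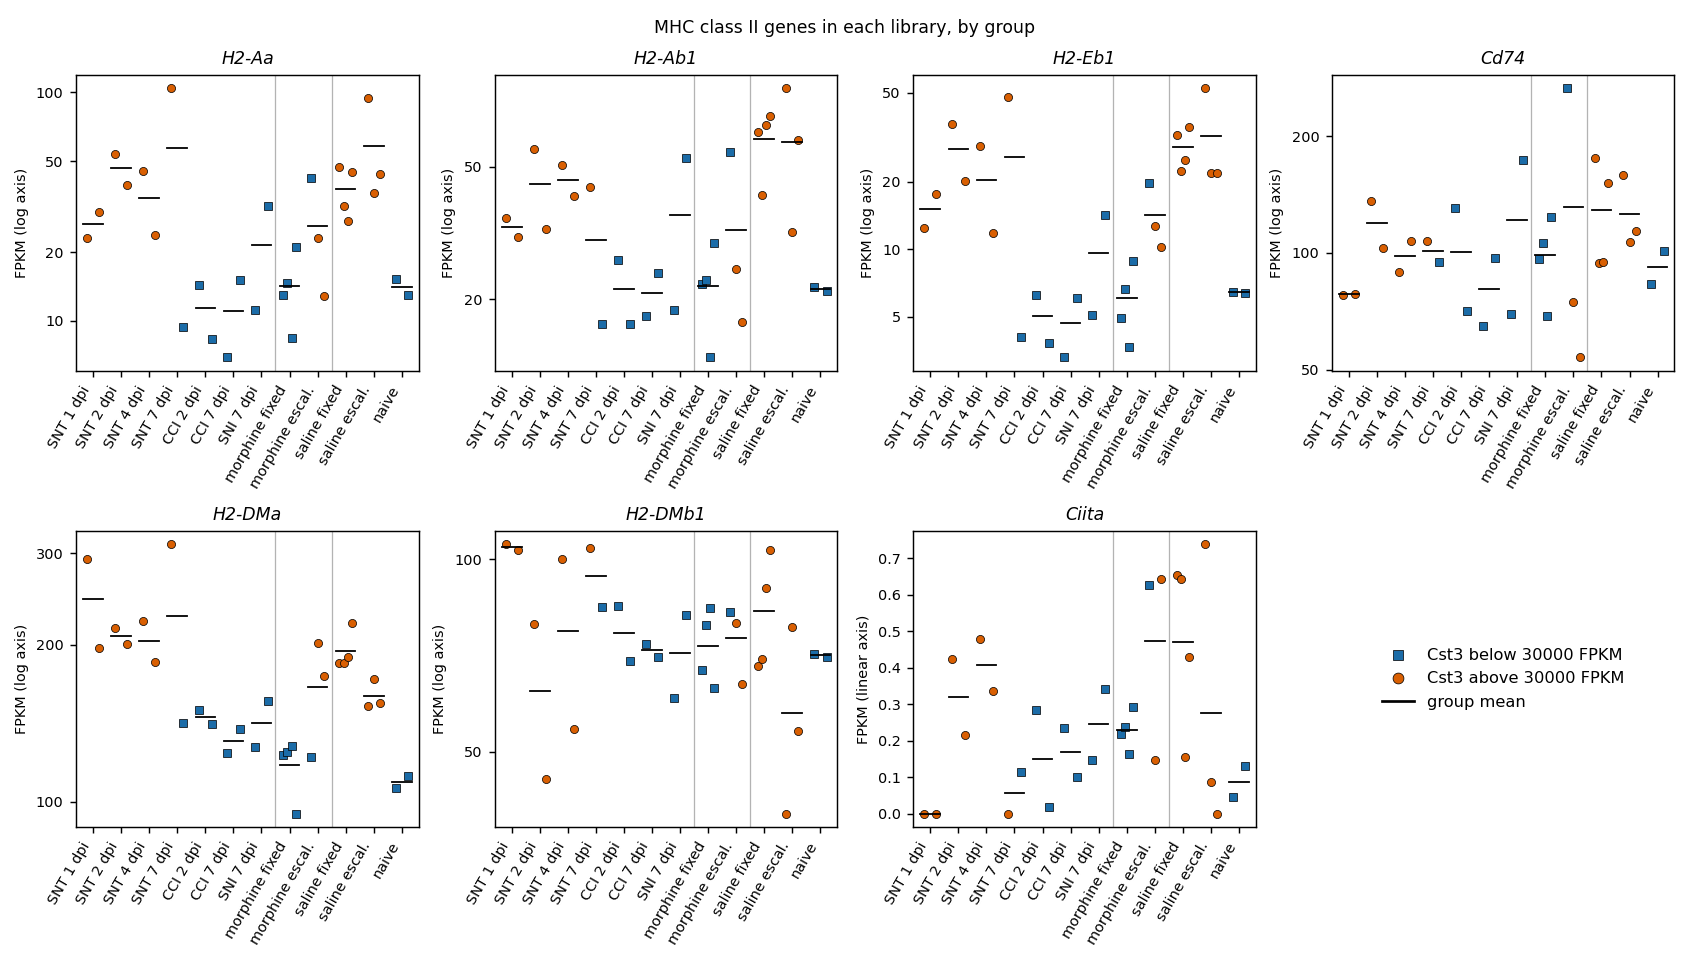
FPKM (log axis, linear for Ciita) of the class II genes in each of the 30 libraries by group. Bars are group means, orange circles have Cst3 above 30000 FPKM and blue squares below it. H2-Aa ran from 6.94 to 104 FPKM while H2-DMb1 stayed between 39.98 and 106 FPKM.

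Of the 6 tested members the peptide-presenting chains varied most. H2-Aa group means were 58.1 FPKM in escalating saline, 56.8 in SNT 7 dpi, 46.6 in SNT 2 dpi, 37.7 in fixed saline and 34.6 in SNT 4 dpi. They were 26.5 FPKM in SNT 1 dpi, 26.0 in escalating morphine, 21.4 in SNI, 14.3 in fixed morphine, 14.1 in naive, 11.4 in CCI 2 dpi and 11.0 in CCI 7 dpi. Each of the 11 neighbouring pairs in that order overlapped in its libraries, so the order is not resolved step by step. The same held for H2-Ab1, H2-Eb1, Cd74, H2-DMb1 and Ciita, and in H2-DMa 10 of 11 neighbouring pairs overlapped, the exception being escalating saline above CCI 2 dpi.

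By the Cst3 set, the members did not all shift alike. H2-DMa ran from 94.8 to 156 FPKM in low-Cst3 libraries and from 153 to 312 FPKM in high-Cst3 libraries. H2-Eb1 ran from 3.29 to 19.7 FPKM in low-Cst3 libraries and from 10.2 to 52.5 FPKM in high-Cst3 libraries. H2-Aa ran from 6.94 to 42.1 FPKM in low-Cst3 libraries and from 12.8 to 104 FPKM in high-Cst3 libraries. Cd74 covered 64.6 to 267 FPKM in low-Cst3 libraries and 53.8 to 176 FPKM in high-Cst3 libraries, without a shift of its range in one direction.

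Fixed morphine was set against fixed saline to ask what the opioid did to these genes. The presenting chains and H2-DMa were lower with fixed morphine, by 1.66-fold to 4.33-fold, whereas Cd74 and H2-DMb1 did not pass the test. H2-Eb1 showed the largest difference of the members. Every fixed morphine library had low Cst3 and every fixed saline library high Cst3, so the drug and that split cannot be told apart here. In bulk samples, fewer class II-bearing cells and less class II RNA per cell cannot be told apart either.

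H2-Eb1, a β chain, was at 4.95, 6.64, 3.67 and 8.84 FPKM in fixed morphine replicates 1 to 4, against 32.5, 22.4, 25.1 and 35.03 FPKM in fixed saline replicates 3 to 6. All morphine libraries were below all saline libraries. The difference was -2.12 ± 0.32 (SE) on the log2(FPKM + 1) scale, a 4.33-fold lower level, with an adjusted p of 0.00499 by limma with Benjamini-Hochberg adjustment over 11759 genes.

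H2-Aa, the I-A α chain, was at 12.99, 14.6, 8.46 and 21.0 FPKM with fixed morphine, against 47.0, 31.9, 27.4 and 44.7 FPKM with fixed saline. H2-Ab1, its β partner, was at 22.2, 22.9, 13.4 and 29.5 FPKM with fixed morphine, against 63.7, 41.1, 66.6 and 71.1 FPKM with fixed saline. Both genes were lower in every morphine library, with no overlap. The difference was -1.37 ± 0.38 (SE) for H2-Aa, with a limma adjusted p of 0.0254. For H2-Ab1 it was -1.44 ± 0.37 (SE), with a limma adjusted p of 0.0194. These calls were the less secure ones, since both were lost without saline_fixed replicate 6, morphine_fixed replicate 2 or morphine_fixed replicate 3, where limma adjusted p ran from 0.0628 to 0.0828 for H2-Aa and from 0.0508 to 0.0671 for H2-Ab1. Without saline_fixed replicate 3 H2-Aa alone was lost (0.0516), and without saline_fixed replicate 5 H2-Ab1 alone (0.0576). The H2-Aa call was also lost with no filter on low genes (limma adjusted p of 0.0544) and after rescaling each library to a common sum, as TPM does (0.0617).

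H2-DMa, the α subunit of the peptide-exchange pair, was at 123, 125, 128 and 94.8 FPKM with fixed morphine, against 185, 184, 189 and 220.1 FPKM with fixed saline. The groups did not overlap, and the log2 difference was -0.73 ± 0.17 (SE) with a limma adjusted p of 0.0150. After TPM rescaling the difference was -0.43 and the call was lost (limma adjusted p of 0.0856). Its partner H2-DMb1 was at 67.1, 78.8, 83.8 and 62.8 FPKM with fixed morphine, against 68.1, 69.8, 90.2 and 103 FPKM with fixed saline. These libraries overlapped, and the log2 difference was -0.17 ± 0.21 (SE) with a limma adjusted p of 0.613. After TPM rescaling the log2 difference of H2-DMb1 changed sign, to 0.14, and was not called. Of this pair, H2-DMb1 holds the X and Y letters printed above, and the H2-DMa windows held no exact TGATTGG. Whether these letters bear on the difference between the 2 genes was not tested.

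Cd74, the invariant chain, was at 96.3, 106, 68.6 and 124 FPKM with fixed morphine, against 176, 94.2, 94.6 and 152 FPKM with fixed saline. The groups overlapped, with 1 morphine library below all saline libraries, and the log2 difference was -0.36 ± 0.40 (SE) with a limma adjusted p of 0.557. Ciita was at 0.164 to 0.293 FPKM with fixed morphine and at 0.155 to 0.653 FPKM with fixed saline, too low to be tested.

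In this comparison 18% of all tested genes passed the test, 4.46% as lower and 13.6% as higher, and 7.49% of tested genes were lower in every morphine library without overlap. The 4 of 6 tested members that were called and lower in every library are read against those shares. The median log2 difference over all genes was 0.22 and over the 6 members -1.05. Relative to the all-gene median, the difference was -2.33 for H2-Eb1, -1.66 for H2-Ab1, -1.59 for H2-Aa, -0.94 for H2-DMa, -0.58 for Cd74 and -0.38 for H2-DMb1.

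**Figure D2:**
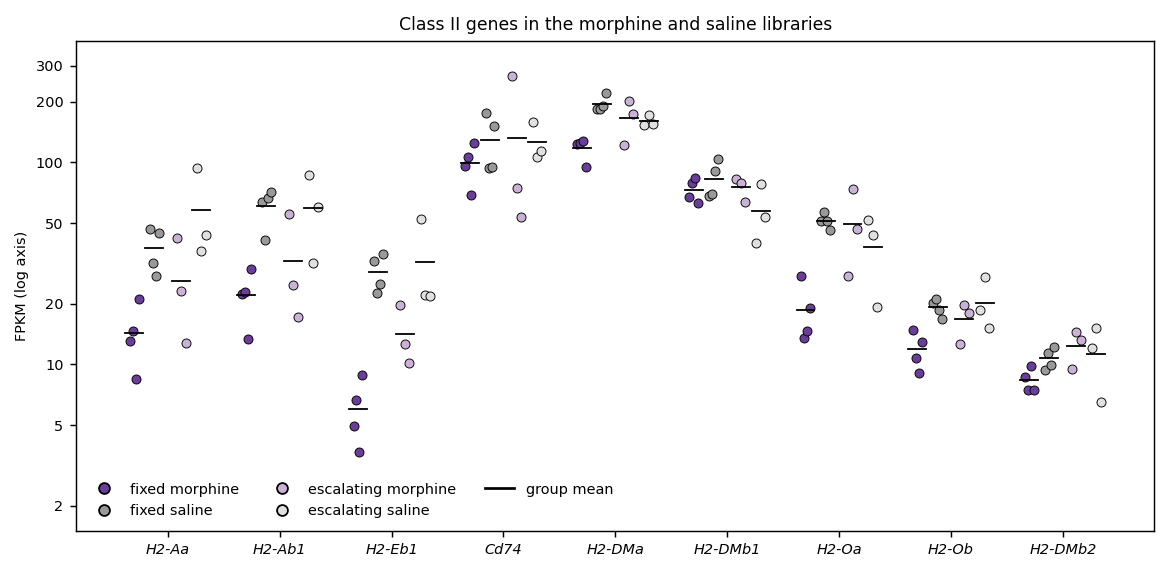
FPKM (log axis) of 6 tested class II genes and of H2-Oa, H2-Ob and H2-DMb2 in fixed morphine, fixed saline, escalating morphine and escalating saline. Circles are libraries coloured by group, and bars are group means. H2-Eb1 lies between 3.67 and 8.84 FPKM in fixed morphine and between 22.4 and 35.03 FPKM in fixed saline.

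The naive libraries, which like the fixed morphine libraries had low Cst3, gave a second baseline, chosen after the values were seen. H2-Eb1 was at 3.67 to 8.84 FPKM with fixed morphine, against 6.44 and 6.39 FPKM in naive libraries. H2-Aa was at 8.46 to 21.0 FPKM with fixed morphine, against 15.2 and 12.99 FPKM in naive libraries. H2-DMa was at 94.8 to 128 FPKM with fixed morphine, against 106 and 112 FPKM in naive libraries.
The fixed morphine values enclosed the naive ones for these genes. The log2 difference was -0.13 ± 0.60 (SE) for H2-Eb1, -0.04 ± 0.62 for H2-Aa, -0.02 ± 0.47 for H2-Ab1, 0.10 ± 0.27 for H2-DMa, 0.07 ± 0.45 for Cd74 and 0.04 ± 0.29 for H2-DMb1, and no member passed limma's test (each adjusted p of 1), as for 0% of all tested genes, with 180 genes at an unadjusted p under 0.05. The labels give the naive libraries no saline, so this baseline differs from the study's own also in its vehicle.

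The other class II genes were read in the same fixed regimen. H2-Oa, the α subunit of the DM inhibitor DO, was at 13.5 to 27.3 FPKM with fixed morphine and at 46.1 to 57.1 FPKM with fixed saline, a log2 difference of -1.46 ± 0.33 (SE) with a limma adjusted p of 0.0124. H2-Ob, its β subunit, was at 9.11 to 14.9 FPKM with fixed morphine and at 16.7 to 21.0 FPKM with fixed saline, with -0.66 ± 0.22 (SE) and a limma adjusted p of 0.0492. H2-DMb2 did not pass, at -0.32 with a limma adjusted p of 0.348. Thus 2 of 3 tested genes of this list fell and none rose, where 4.46% of all tested genes fell and 13.6% rose.

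Genes that act on class II transcription were called about as often as other genes. Of 20 tested genes of the transcription machinery 4 rose and 1 fell, near the 13.6% and 4.46% over all genes, with a median log2 difference of 0.34 against 0.22 over all genes. Those that rose were the RFX subunit gene Rfxap by 1.403, the histone acetyltransferase genes Crebbp by 1.52 and Ep300 by 0.77, and the chromatin remodeller gene Smarca4 by 1.18. Spi1, which encodes the myeloid factor PU.1, fell by 0.65 on the log2 scale with a limma adjusted p of 0.0456.

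Interferon-gamma genes that passed the test were higher with fixed morphine, in libraries that also differ by the Cst3 split, and most genes called in this comparison were higher (13.6% of all tested genes). Of 9 tested genes of interferon-gamma signalling 3 rose and 0 fell by limma, among them the kinase gene Jak2 by 1.81 and the feedback inhibitor gene Socs3 by 2.24. Of 12 tested interferon-gamma-induced genes 7 rose and 0 fell, with a median of 0.75. They included the guanylate-binding protein genes Gbp7 by 1.24 and Gbp2 by 1.07, the chemokine gene Cxcl10 by 1.28, and Nlrc5, the class I transactivator, by 0.72. The list did not move one way throughout. Psmb9, which did not pass, was at 21.5 to 23.2 FPKM with fixed morphine and 34.0 to 65.3 FPKM with fixed saline. Such a lower level without overlap was found in 7.49% of tested genes. In endosomal processing and turnover, 1 of 14 tested genes fell and 0 rose by limma, against 4.46% and 13.6% of all tested genes. That gene was March1, a ubiquitin ligase that removes class II from the surface, with a log2 difference of -1.01 ± 0.24 (SE) and a limma adjusted p of 0.0138. Ctss, the protease that trims the invariant chain, was at -0.53 with a limma adjusted p of 0.119.
Of 9 co-stimulation genes 2 rose and 0 fell by limma, the inhibitory ligand gene Cd274 by 1.19 and the adhesion gene Icam1 by 0.78, a share not far from the 13.6% over all genes.

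Markers of other cells that carry class II were read beside these results. Summed over its list, border macrophage marker FPKM was 13.5 to 59.1 with fixed morphine and 10.6 to 46.1 with fixed saline. Dendritic cell markers summed to 21.8 to 23.6 FPKM with fixed morphine and 25.1 to 42.1 FPKM with fixed saline. B cell markers summed to 16.3 to 23.4 FPKM with fixed morphine and 11.0 to 40.9 FPKM with fixed saline. Among these 3 lists only the dendritic cell sums did not overlap between the groups, and the microglia sums given below did not overlap either. How often sums of other genes separate like this was not counted, so it is not read as a result. Batf3, the most abundant gene of the dendritic cell list, overlapped, at 10.7 to 15.4 FPKM with fixed morphine and 9.97 to 29.8 FPKM with fixed saline. Of tested markers 1 of 10 border macrophage genes (Pf4, by 1.91), 0 of 6 dendritic cell genes and 1 of 5 B cell genes (Cd79a, by 1.48) fell on the log2 scale and none rose in limma's test. Over all tested genes 4.46% fell and 13.6% rose.
The defining markers were near 0 throughout: over the 30 libraries Xcr1 reached at most 0.315 FPKM, Clec9a 0.217 FPKM and Ms4a1 0.333 FPKM, Flt3 2.02 FPKM, Mrc1 2.16 FPKM and Cd163 1.95 FPKM, and Pax5 was listed at 0 in 28. Neutrophil markers, with 2 of 12 lower, summed to 1845 to 18972 FPKM with fixed morphine and 7400 to 28931 FPKM with fixed saline, and microglia markers, with 1 of 12 higher and 2 lower, to 10709 to 13824 FPKM with fixed morphine and 13872 to 16448 FPKM with fixed saline. The neutrophil and microglia counts too are read against 4.46% lower and 13.6% higher over all tested genes. The part of these cells in the class II difference was not tested.

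Escalating morphine was set against escalating saline. The 3 presenting chains were 1.89-fold to 2.23-fold lower with escalating morphine, but no member passed the test. H2-Aa was at 42.1, 23.0 and 12.8 FPKM with escalating morphine, against 94.3, 36.3 and 43.7 FPKM with escalating saline. Morphine replicate 1 lay inside the saline range and the other 2 morphine libraries below it. H2-Aa differed by -1.16 ± 0.43 (SE) with a limma adjusted p of 0.181.

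H2-Eb1 was at 19.7, 12.7 and 10.2 FPKM with escalating morphine, against 52.5, 21.9 and 21.9 FPKM with escalating saline. All morphine libraries lay below all saline libraries, but the share of all tested genes with that pattern was not counted, so it is not read as a result. The log2 difference was -1.05 ± 0.37 (SE) with a limma adjusted p of 0.159. For H2-Ab1 it was -0.92 ± 0.43 (SE) with a limma adjusted p of 0.260. Cd74 was at 267, 74.8 and 53.8 FPKM with escalating morphine, against 159, 106 and 114 FPKM with escalating saline.
Morphine replicate 1, the low-Cst3 library of that group, held the highest Cd74 of all 30 libraries, and its partners the lowest values of both groups. The Cd74 difference was -0.28 (limma adjusted p of 0.793), that of H2-DMa 0.02 (0.970) and that of H2-DMb1 0.43 (0.365). In this comparison 0.034% of all tested genes passed, and 2254 had an unadjusted p under 0.05.
With replicate 1 left out, all libraries had high Cst3, and the log2 differences were -1.57 for H2-Aa, -1.38 for H2-Ab1, -1.30 for H2-Eb1 and -0.96 for Cd74, with 0.216 as the lowest limma adjusted p of a member. In a fit of high-Cst3 libraries alone, which also leaves out fixed morphine, the differences were the same and the lowest limma adjusted p was 0.455.

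The difference between the regimens was tested itself as the fixed effect minus the escalating effect. It was -1.07 ± 0.48 (SE) for H2-Eb1 with a limma adjusted p of 0.413 and -0.75 ± 0.27 (SE) for H2-DMa with a limma adjusted p of 0.328. For H2-Aa it was -0.21 and for Cd74 -0.08. No member passed, as for all but 0.0085% of tested genes, and 1377 genes had an unadjusted p under 0.05. The calls in the fixed regimen are therefore not shown to be particular to it.

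The controls differed among themselves. Saline libraries were higher than naive ones in all 4 genes that were lower with fixed morphine. H2-Eb1 was at 21.9 to 52.5 FPKM, with a median of 25.1 FPKM, in 7 saline libraries and at 6.44 and 6.39 FPKM in naive libraries. The log2 difference was 2.01 ± 0.55 (SE) with a limma adjusted p of 0.0839. It was 1.59 ± 0.58 for H2-Aa (0.209), 1.37 ± 0.43 for H2-Ab1 (0.134) and 0.68 ± 0.25 for H2-DMa (0.211).
In each of these genes all 7 saline libraries were above both naive libraries, a pattern found in 6.07% of tested genes. Cd74 at 0.43 and H2-DMb1 at -0.07 overlapped between the groups. No member passed, against 0.604% of all tested genes, with 1504 genes at an unadjusted p under 0.05. In an F-test among fixed saline, escalating saline and naive, the limma adjusted p of the members ran from 0.165 for H2-Eb1 to 0.847 for Cd74, with 0.102% of all genes called and 1591 at an unadjusted p under 0.05. All saline libraries had high Cst3 and both naive libraries low Cst3, so these differences cannot be told apart from that split.

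**Figure D3:**
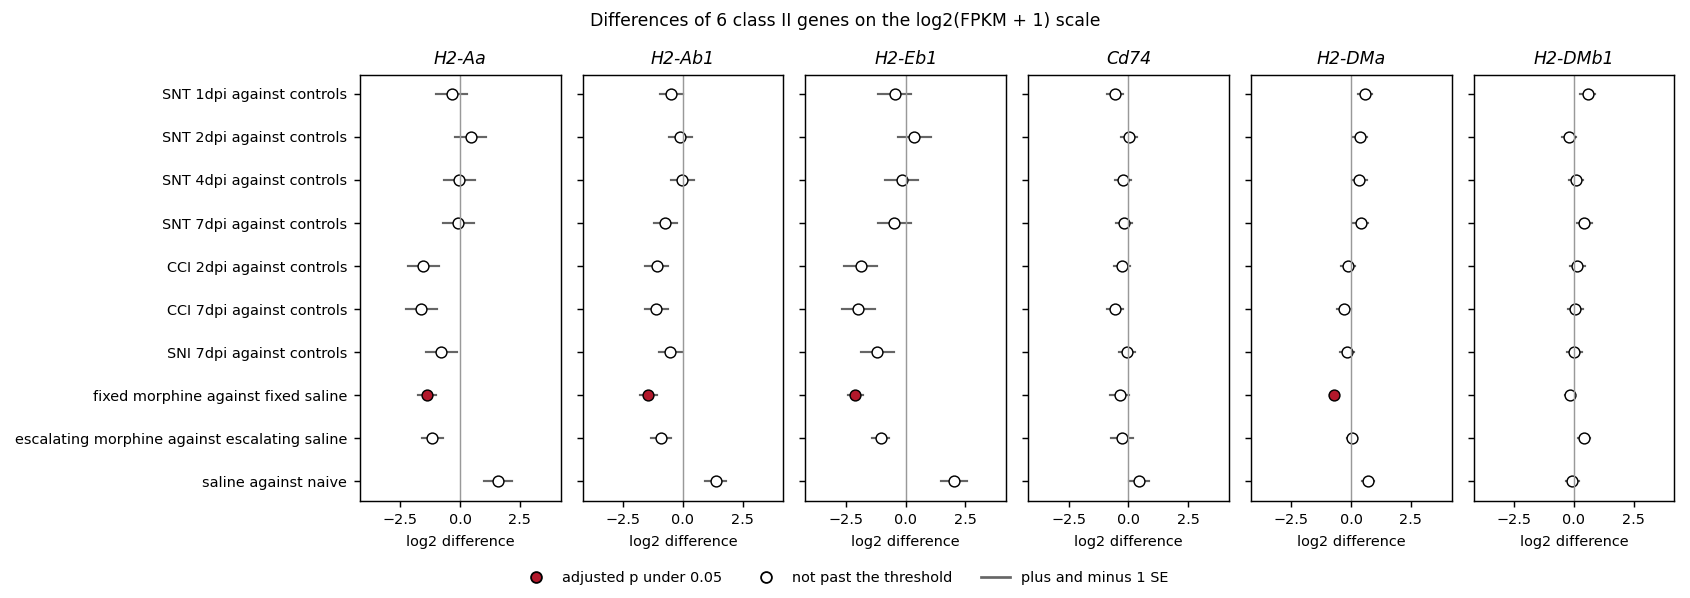
Log2 difference on the log2(FPKM + 1) scale of each tested class II gene in each comparison, with ±1 SE; filled red points have a limma adjusted p under 0.05. Filled points occur in fixed morphine against fixed saline, for 4 of 6 genes, with H2-Eb1 at -2.12.

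Each injury group was set against the 9 controls, to ask whether class II genes rose in the lumbar cord after nerve injury. No member passed the test in any of the 7 comparisons. Among the injury groups H2-Aa and H2-Eb1 were lowest after CCI. There, H2-Eb1 was at 6.26 and 3.80 FPKM on day 2 and at 3.29 and 6.06 FPKM on day 7. Controls ran from 6.39 to 52.5 FPKM with a median of 22.4 FPKM. The highest CCI library, at 6.26 FPKM, was thus only just below the lowest control, a naive library. The share of all tested genes with every CCI library below the controls was not counted. The log2 difference was -1.89 ± 0.69 (SE) at 2 dpi with a limma adjusted p of 0.398 and -1.99 ± 0.69 (SE) at 7 dpi with a limma adjusted p of 0.333.

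After CCI, the α chain gene H2-Aa was at 14.3 and 8.38 FPKM on day 2 and at 6.94 and 15.1 FPKM on day 7, against 12.99 to 94.3 FPKM in controls, with a median of 36.3 FPKM. The CCI values reached into the lower end of the control range, where the naive libraries lie. The log2 difference was -1.53 ± 0.65 (SE) at 2 dpi and -1.62 ± 0.65 (SE) at 7 dpi, with limma adjusted p of 0.423 and 0.387. Of all tested genes, 0.0085% were called after CCI at 2 dpi and 0% at 7 dpi, with 1263 and 1146 genes at an unadjusted p under 0.05.

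The choice of control moved the CCI values by more than 1.5-fold. Against naive libraries alone, which like the CCI libraries had low Cst3, the H2-Eb1 difference was -0.33 at 2 dpi and -0.43 at 7 dpi, and the H2-Aa difference -0.33 and -0.41. Against saline libraries alone H2-Eb1 was at -2.33 (limma adjusted p of 0.0463) and -2.44 (0.0366). H2-Eb1 was thus called against saline libraries and not against all controls or naive libraries. With all 9 controls and array weights, which give less weight to variable libraries, it was also called at 7 dpi (limma adjusted p of 0.017) and not at 2 dpi (0.0549).

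After SNI at 7 dpi the replicates stood apart from each other, and H2-Aa was at 11.2 and 31.7 FPKM, against 12.99 to 94.3 FPKM in controls. H2-Eb1 was at 5.098 and 14.2 FPKM and Cd74, the invariant chain, at 69.6 and 174 FPKM, so replicate 2 was higher in all 3 genes. On the log2 scale the difference was -0.80 for H2-Aa and -1.18 for H2-Eb1 against all controls, and 0.41 and 0.38 against naive libraries alone. No member passed (limma adjusted p of 0.999 for both), as for 0% of all genes, with 478 at an unadjusted p under 0.05.

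SNT libraries at 1, 2 and 4 dpi all had high Cst3, like the saline libraries. H2-Aa was at 23.0 and 29.96 FPKM at 1 dpi, then 53.7 and 39.4 FPKM at 2 dpi, then 45.3 and 23.8 FPKM at 4 dpi, all inside the control range. H2-Eb1 was at 12.4 and 17.7 FPKM at 1 dpi, then 36.1 and 20.2 FPKM at 2 dpi, then 29.0 and 11.8 FPKM at 4 dpi. The log2 difference from controls was -0.35, 0.44 and -0.03 for H2-Aa at these days and -0.46, 0.36 and -0.16 for H2-Eb1.
The exchange gene H2-DMa was at 293 and 197 FPKM at 1 dpi, against 106 to 220.1 FPKM in controls. It had a log2 difference of 0.58 with a limma adjusted p of 0.338, and replicate 1 alone was above the control range. H2-DMb1 was at 106 and 103 FPKM at 1 dpi, against 39.98 to 103 FPKM in controls, with 0.58 and a limma adjusted p of 0.354. Of all tested genes 0.017% were called at 1 dpi and 0% at 2 and 4 dpi, with 1899, 862 and 275 genes at an unadjusted p under 0.05.

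At 7 dpi after SNT the 2 replicates fell on opposite sides of the Cst3 split, and H2-Aa, H2-Ab1, H2-Eb1 and H2-DMa differed widely between them. Replicate 1, with high Cst3, had 104 FPKM of H2-Aa and 312 FPKM of H2-DMa, the highest of all 30 libraries, and 47.8 FPKM of H2-Eb1. Replicate 2, with low Cst3, had 9.37 FPKM of H2-Aa, 142 FPKM of H2-DMa and 4.05 FPKM of H2-Eb1. H2-Ab1 was at 43.5 FPKM in replicate 1 and 16.9 FPKM in replicate 2. The other members were closer together in these replicates, with Cd74 at 108 and 94.8 FPKM and H2-DMb1 at 104 and 84.3 FPKM, and Ciita was listed at 0 in replicate 1 and at 0.113 FPKM in replicate 2. Against controls with high Cst3 replicate 1 differed by 1.26 in H2-Aa and 0.71 in H2-Eb1 on the log2 scale, and against controls with low Cst3 replicate 2 differed by -0.54 and -0.55.
The group's own differences, -0.07 for H2-Aa and -0.48 for H2-Eb1, lay between these values and describe neither library. Of all tested genes 0.204% were called, with 1044 at an unadjusted p under 0.05.

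The course over days after SNT and the contrast of injury types at 7 dpi were tested as F-tests. Among the SNT days the limma adjusted p of the members ran from 0.608 to 0.974, with 0.0085% of genes called and 1350 at an unadjusted p under 0.05. Among SNT, CCI and SNI at 7 dpi each member had a limma adjusted p of 1, with 0% called and 456 at an unadjusted p under 0.05. No member passed either test.

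Within each Cst3 set, the presenting chains and Cd74 varied together, and H2-DMa and H2-DMb1 showed no such relation to them. Over both sets together H2-DMa was positively related to the presenting chains, but the sets lie apart, so no pooled value is read. Because the libraries fall into 2 sets, correlations of log2(FPKM + 1) were taken within the 16 high-Cst3 and the 14 low-Cst3 libraries, for 21 pairs of genes in each, with adjusted permutation p over the pairs. H2-Aa and H2-Eb1 had a Pearson r of 0.93 (adjusted permutation p of 0.00021) and a Spearman rho of 0.91 in the high set, and 0.99 (4.2e-05) and 0.95 in the low set. H2-Aa and H2-Ab1, partners in the I-A molecule, had an r of 0.68 (adjusted permutation p of 0.0105) and a rho of 0.67 in the high set, and 0.96 (4.2e-05) and 0.90 in the low set. Without the 2 libraries farthest from the median H2-Aa, r was 0.91 and 0.98 for H2-Eb1 and 0.70 and 0.89 for H2-Ab1 in the high and low sets.
H2-Aa and Cd74 had an r of 0.73 (adjusted permutation p of 0.00609) and a rho of 0.79 in the high set, and 0.93 (4.2e-05) and 0.83 in the low set. Without those 2 libraries r was 0.76 in the high set and 0.80 in the low set.

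For the DM genes the within-set values were near 0. H2-Aa and H2-DMa had an r of 0.16 in the high set and -0.08 in the low set, and H2-Aa and H2-DMb1 had -0.08 in the high set and 0.16 in the low set (adjusted permutation p of 0.757 to 0.861 for these 4 values). H2-DMa and H2-DMb1 had an r of 0.70 (adjusted permutation p of 0.00798) and a rho of 0.79 with each other in the high set, and 0.54 (adjusted permutation p of 0.0915) and 0.49 in the low set. Without the 2 farthest libraries r was 0.67 in the high set and 0.31 in the low set. Ciita, barely detected, had an r of 0.73 to 0.82 with the presenting chains and Cd74 in the low set (adjusted permutation p of 0.00189 to 0.00672). By rho only H2-Ab1 (adjusted permutation p of 0.0238) and Cd74 (0.0424) passed with it. Without the 2 farthest libraries these values of r were 0.29 to 0.49, and in the high set no pair with Ciita passed.

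**Figure D4:**
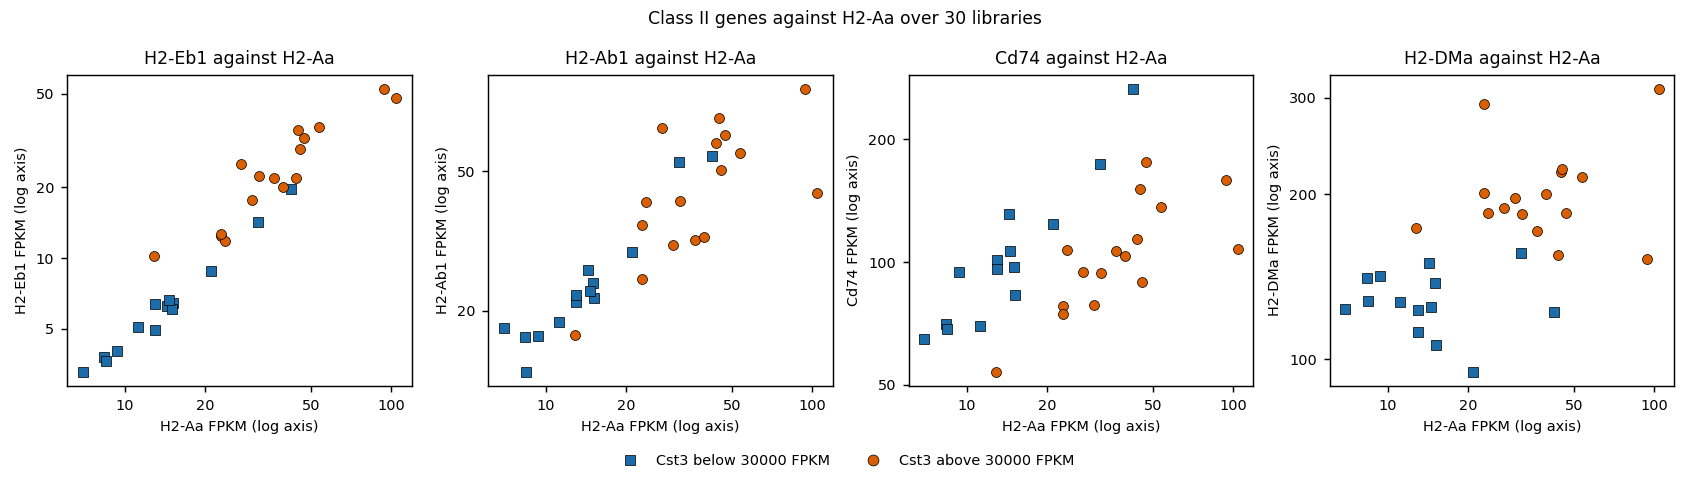
FPKM of H2-Eb1, H2-Ab1, Cd74 and H2-DMa against FPKM of H2-Aa over 30 libraries (both axes log). Orange circles have Cst3 above 30000 FPKM and blue squares below it. H2-Eb1 follows H2-Aa within each set (r of 0.93 in the high set and 0.99 in the low set), and H2-DMa does not (0.16 and -0.08).

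Some ratios between members, on the FPKM scale, also differed between fixed morphine and fixed saline. H2-Eb1 per H2-Ab1 was 0.223 to 0.300 with fixed morphine, against 0.376 to 0.545 with fixed saline. Cd74 per H2-Ab1 was 4.202 to 5.12 with fixed morphine, against 1.42 to 2.76 with fixed saline. H2-DMa per H2-DMb1 was 1.51 to 1.83 with fixed morphine, against 2.10 to 2.71 with fixed saline.
None of these 3 ratios overlapped between the groups. H2-Eb1 per H2-Aa did not overlap either, at 0.382 to 0.455 with fixed morphine and 0.692 to 0.917 with fixed saline. How many pairs of other genes separate like this was not counted, so the lack of overlap is not read as a result. Cd74 per H2-Ab1 and H2-DMa per H2-DMb1 each set a called gene against an uncalled gene. H2-Ab1 per H2-Aa, the partners in I-A, did overlap, at 1.404 to 1.71 with fixed morphine and 1.29 to 2.44 with fixed saline. Over all libraries Cd74 per H2-Ab1 was 3.27 to 5.60 in the low-Cst3 set and 1.42 to 3.34 in the high-Cst3 set, and H2-DMa per H2-DMb1 was 1.47 to 2.10 in the low-Cst3 set and 1.90 to 4.43 in the high-Cst3 set. The ratios thus moved with the Cst3 split, and its part in them was not tested.

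**Figure D5:**
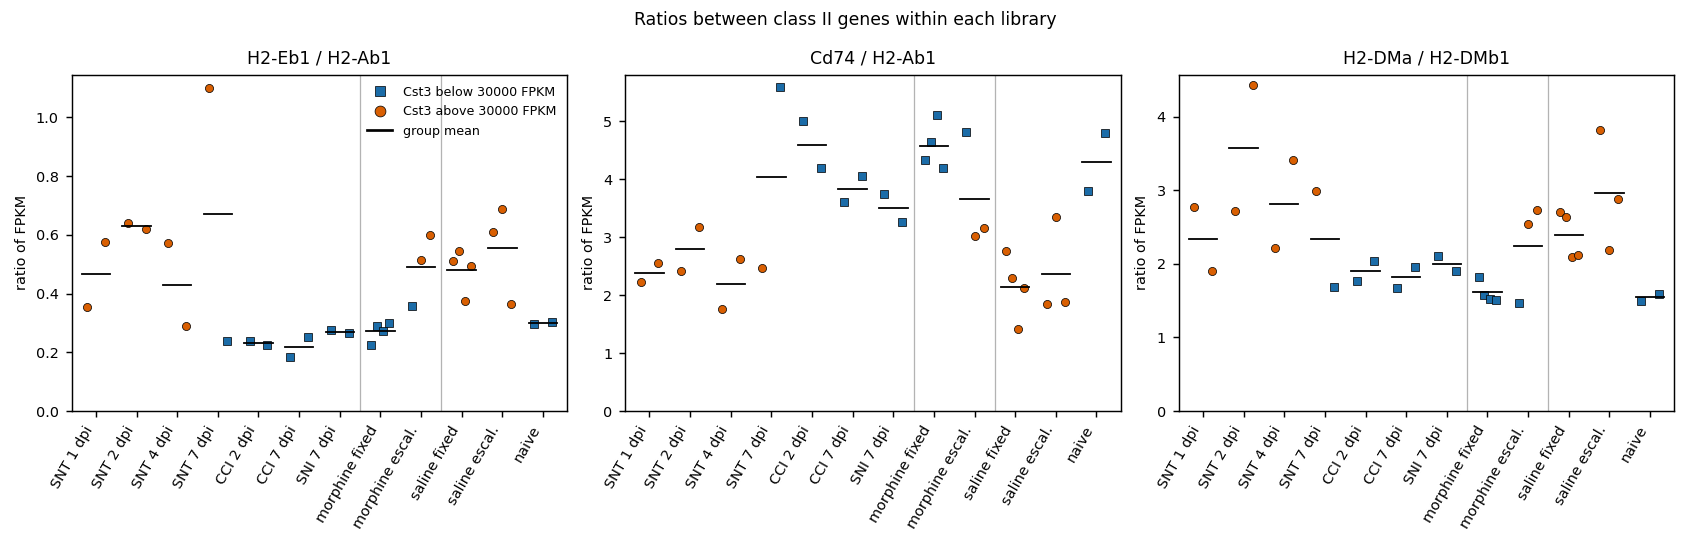
Ratios of FPKM in each library by group (linear axis) for H2-Eb1 per H2-Ab1, Cd74 per H2-Ab1 and H2-DMa per H2-DMb1. Bars are group means, orange circles have Cst3 above 30000 FPKM and blue squares below it. Cd74 per H2-Ab1 is 4.202 to 5.12 with fixed morphine, against 1.42 to 2.76 with fixed saline.

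Marker lists were correlated with H2-Aa in the same way, as 9 measures. Each list was taken as the mean log2(FPKM + 1) of its genes, not as the summed FPKM given above. In the high-Cst3 set the border macrophage markers had an r of 0.55 (adjusted permutation p of 0.252) and a rho of 0.68 (adjusted permutation p of 0.0487), and no other list passed. In the low-Cst3 set H2-Aa had an r of 0.62 to 0.72 with dendritic cell, monocyte, neutrophil, T and NK cell and activated microglia markers, with adjusted permutation p of 0.0255 to 0.035, whereas no list passed by rho, with 0.108 as the lowest adjusted permutation p. Without the 2 libraries farthest from the median these 5 values of r were 0.25 to 0.56, so they rest in part on those libraries. Cst3 itself had an r of -0.01 with H2-Aa in the high set and 0.42 in the low set (adjusted permutation p of 0.158 in the low set). No relation of the Cst3 level to H2-Aa was thus detectable within either set.

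The genes whose pattern was most like that of H2-Aa over the 30 libraries, counting genes that averaged 5 FPKM or more, were Lsp1 and Clec4a2, each with a Pearson r of 0.79, Nudt7 with 0.79 and Tceal1 with 0.78. They were followed by Sqrdl, Ostf1, Syf2 and Ccl6, each at 0.76, and Gm10790 and Atp6v1e1 at 0.75. Within the high-Cst3 set these 10 had an r of 0.28 to 0.52 and within the low-Cst3 set of 0.50 to 0.89, mostly below the values over all libraries. Those most like Cd74 were Samhd1 at 0.70, Adgre5 at 0.68 and Dhrs7 at 0.67, then Ltb4r1, Fam101b, Gsn, Plbd1, Mmp8, Mmp9 and Cd47, with an r of 0.50 to 0.70 within the high set and 0.64 to 0.80 within the low set. The libraries share depth and cell makeup, and these values are descriptions.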

How the data were processed

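FPKM values per gene for 30 libraries were used as the authors deposited them. HISAT2 2.0.5.1, Cufflinks 2.2.1, featureCounts 1.4.6 and DESeq2 and the mm10 build are named in the submitters' processing notes, and which tool and annotation gave the FPKM is not given in the sources used here. Of 24888 rows, 826 with one of 281 repeated symbols were left out, and 11759 genes with at least 1 FPKM in at least 2 libraries were tested with limma 3.58.1 (R 4.3.3, trended variance) on log2(FPKM + 1), with Benjamini-Hochberg adjustment and a threshold of 0.05. A fold is therefore on the log2(FPKM + 1) scale and understates changes of low genes. Injury groups and all 9 controls shared a fit, morphine and saline groups another, and contrasts among controls came from all 30 libraries. The fits were tested on simulated data. Correlations used 100000 permutations. Depth was inferred from the size of steps between low FPKM values, so it is an estimate. The members and gene lists were chosen with earlier results of these data known; the 7 members were named whatever their values, listed genes when called or, up to 4 a list, by level, and similar genes as the 10 with the highest Pearson r. Replicate numbers did not pair the libraries (see the closing section). Alternatives covered the pseudocount, filters, scaling, weights, controls and each library left out.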

Additional observations from a re-analysis of the deposited data

Results flagged for a closer look

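Over 21 sets of libraries and members examined for a library far from the others, 3 were found, and chance alone flags about 1 in 20. H2-DMa was at 94.8 FPKM in fixed morphine replicate 4, below the other 3 libraries of that group at 123 to 128 FPKM. H2-DMa was also at 220.1 FPKM in fixed saline replicate 6, above the other 3 at 184 to 189 FPKM. H2-Aa was at 94.3 FPKM in escalating saline replicate 7, far above the other 8 controls, which reached 47.0 FPKM.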

How the results depend on the processing

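Of the members' log2 differences over all alternatives, 1239 kept their direction and side of the threshold, 133 below the threshold changed sign, 13 gained and 18 lost a call, and 1 called difference changed sign. The 4 members called with fixed morphine were 2 after TPM rescaling, 0 with the replicate block and 0 with naive libraries in place of fixed saline, where H2-DMa turned to 0.10, and 2 to 4 with each library left out. After CCI, H2-Eb1 alone was called against saline controls alone (1 member at 2 dpi and 1 at 7 dpi), and 2 members at 7 dpi with array weights. Array weights also called 1 member between the regimens, 2 among the kinds of control and 4 in saline against naive; without the 3 libraries with the fewest genes these last were 2 and 3. Leaving out each library gave 0 to 1 among the injuries at 7 dpi (1 without SNT_7dpi replicate 2) and 0 to 1 between the regimens (1 without morphine_escalating replicate 1). The cause was not tested. Among correlations that passed over all 30 libraries, the sign changed within a set for H2-Aa with H2-DMa (-0.079, low), H2-Eb1 with H2-DMa (-0.073, low), H2-Ab1 with H2-DMa (-0.11, high) and H2-Aa with Cst3 (-0.011, high).

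The replicate numbers did not pair the libraries: over 28 pairs of groups, same-numbered deviations correlated at -0.43 to 0.22, with 4 over 0.1. With the replicate block each member had an adjusted p of 0.456 in the fixed regimen, and the escalating comparison could not be fitted. The Cst3 sets and the naive baseline for morphine were chosen after seeing the data. With 2 libraries a group, the injury comparisons had little precision.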
